A study of Mus musculus with 12 samples.

Results

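The libraries described here come from white adipose tissue of Mir181a2b2-/- (KO) mice, and the comparison is between KO mice given methotrexate (MTX, 3 libraries, replicates 2, 3 and 4) and KO mice given vehicle (3 libraries, replicates 1, 2 and 3). They are 6 of the 12 libraries of the series and were chosen by genotype and treatment as labelled, with no measured value used. The other 6 came from Mir181a2b2 flox/flox (flox) mice under the same 2 treatments. All mice had 12 weeks of a high-fat diet (60% fat), and the MTX mice received 1 mg/kg by weekly intraperitoneal injection. Both groups carry the deletion, so MTX and vehicle are compared here within mice that lack the miR-181a2b2 cluster, and the question is what MTX does to the fat transcriptome without it. By the methods, the deletion is systemic, the mice were male littermates matched for age, and the fat was the epididymal depot. Ages in weeks and the makeup of each library from 1 or more mice are not given in the labels, so p-values measure the spread between these libraries.

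MTX is a folate antagonist that, as polyglutamates, also blocks enzymes of purine synthesis, and at low dose it is known to raise extracellular adenosine. It is used as a low-dose drug against rheumatoid arthritis. Obese visceral fat gathers macrophages, lymphocytes and antibody-secreting plasma cells among its adipocytes, vessels and fibroblasts, and the miR-181 family is known to dampen NF-kappaB signaling in endothelium. Because each library is bulk RNA, fewer cells of a type and less RNA per cell cannot be told apart in any result that follows.

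The microRNAs that the deleted cluster encodes are shown because all 6 animals lack this locus. In RefSeq (GRCm38.p6) the mature miR-181a-5p of Mir181a-2 lies on chromosome 2 at chr2:38852741-38852763 and miR-181b-5p of Mir181b-2 at chr2:38853845-38853868, both on the plus strand. The seed, bases 2 to 8, is in capitals and has the same letters in both.
mmu-miR-181a-5p: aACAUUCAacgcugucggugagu
mmu-miR-181b-5p: aACAUUCAuugcugucgguggguu
The same mature sequences are also encoded by Mir181a-1 and Mir181b-1 on chromosome 1, which the deletion leaves in place. The precursors of both clusters had 0 counts in each of the 6 libraries, and libraries of this kind do not count mature microRNAs, so the deletion was not checked by expression.

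The 6 libraries held 19653146 to 23243683 counted reads, and a count of 0 allows a level of up to 0.132 to 0.157 counts scaled to library size (CPM). All levels below are CPM scaled by trimmed-mean (TMM) factors, and fold changes are log2 values of MTX over vehicle. The tissue label was checked on fat markers, and all 25 genes of the adipocyte list, Adipoq and Fabp4 among them, had more than 3 counts in every library. Epididymal RNA was low: the summed level of an epididymis list lay between 111 and 153 CPM, and 2 of its genes, Clu among them, exceeded 3 counts in every library. MTX replicate 3 stood apart. It was the highest of the 6 libraries for 26.7% of genes and the lowest for 26.2%, its summed adipocyte markers (26269 CPM) lay below the 38907 to 64442 CPM of the other 5 libraries, and its mast cell markers (414 CPM) lay above their 78.1 to 154 CPM. On the first principal component of the 500 most variable genes, which held 50.9% of the variance, vehicle replicate 3 lay between the other vehicle libraries and the MTX libraries.

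Across 16569 genes tested, 3 were called, and all 3 encode immunoglobulins that rose with MTX. A gene was called when edgeR's quasi-likelihood test with Benjamini-Hochberg adjustment gave an adjusted p under 0.1 with a change of at least 1.5-fold, which left 0.0181% of genes called higher and 0.0% called lower. At an unadjusted p under 0.05, 1201 genes were higher (7.25%) and 1225 were lower (7.39%). The 3 MTX values lay above all 3 vehicle values for 1781 genes (10.7%) and below them for 1731 (10.4%), and these shares are the background for each list described below. DESeq2 on the same 6 libraries called 204 genes higher (1.05% of 19456) and 311 lower (1.6%), the 3 genes called by edgeR included. The calls of edgeR moved with single libraries. None was made without vehicle replicate 1, without MTX replicate 2 or without MTX replicate 3, and the 1 call without MTX replicate 4 was not among the 3. Without vehicle replicate 2, 2 of the 3 were called, and without vehicle replicate 3 all 3 were among 534 calls (115 higher, 419 lower). The median log2 fold change over all tested genes was -0.03. The plot of all genes shows most immunoglobulin genes well above that median.

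**Figure D1:**
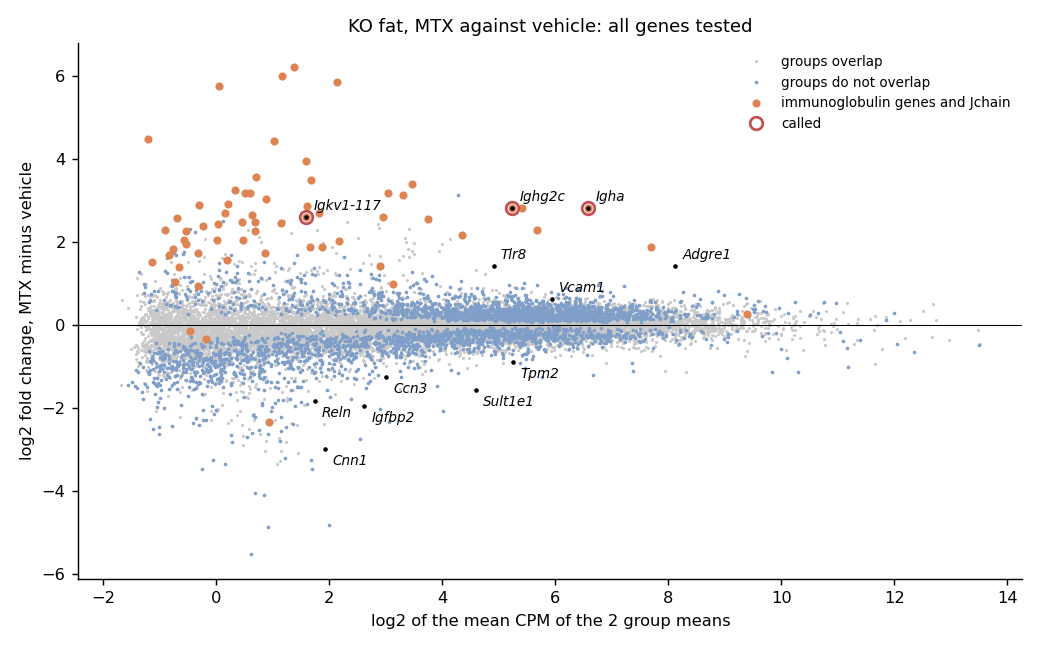
Each point is 1 of the 16569 genes tested in KO fat, with the log2 of its mean CPM on the x axis and the log2 fold change of MTX over vehicle on the y axis. Blue points are genes whose MTX and vehicle values do not overlap, orange points are immunoglobulin genes, and rings mark the 3 called genes, which all lie above 2 on the y axis.

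The 3 genes that rose encode parts of antibodies, the proteins that plasma cells secrete. Igha (ENSMUSG00000095079, chr12:113254830-113260236, minus strand, GRCm38), the constant region of IgA, the antibody class of mucosal surfaces, stood at 25.7, 15.99 and 30.7 CPM in the vehicle libraries and at 193, 159 and 153 CPM in the MTX libraries. The groups were far apart, and Igha rose by 2.80 on the log2 scale (standard error 0.24, adjusted p = 0.0906 by edgeR's quasi-likelihood test). Ighg2c (chr12:113285325-113288932, minus strand), the constant region of a complement-fixing IgG class, stood at 6.86, 13.5 and 7.68 CPM with vehicle and at 56.9, 79.6 and 61.7 CPM with MTX. It rose by 2.81 (standard error 0.27, the same adjusted p), again with no overlap. Igkv1-117 (chr6:68121046-68121827, plus strand), a variable (V) gene of the kappa light chain, stood at 0.73, 0.71 and 1.11 CPM with vehicle and at 5.47, 5.44 and 4.54 CPM with MTX. It rose by 2.59 (standard error 0.26), and the 3 MTX values were close to one another.

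Antibody genes as a class lay in the same direction. Of 264 genes that the annotation types as immunoglobulin genes, 61 passed the filter on low counts and 58 of these had a positive fold change, with a median of 2.48. Of the 61, 38 were higher at an unadjusted p under 0.05 and 29 had MTX values above every vehicle value, against 7.25% and 10.7% of all genes. The filter keeps a gene that is high in 1 group alone, so these counts describe the genes that passed and not the 264. Summed over the class, the vehicle libraries held 984, 909 and 540 CPM and the MTX libraries 1326, 2635 and 1198 CPM. The sums do not overlap (exact permutation test, p = 0.1, the smallest that 3 against 3 libraries allow). MTX replicate 3, which stands apart from the other libraries, is the highest of them. Without it 28 of 64 tested members were higher at an unadjusted p under 0.05 (6.74% of all genes), with a median of 1.36, and no member was called.

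All 11 constant region genes tested had a positive fold change, and 4 lay above every vehicle value, against 10.7% of all genes. IgM was among those that overlapped. The immunoglobulin genes of this paragraph and the next, apart from those already given, Iglv1 and Jchain, were chosen after their values were seen. Ighm, the heavy chain of the first antibody class made and the one that naive B cells carry, stood at 814, 677 and 345 CPM with vehicle and 525, 1051 and 611 CPM with MTX. These groups overlap (log2 fold change 0.25, adjusted p = 0.769). Igkc, the kappa constant region shared by most mouse antibodies, stood at 82.9, 108 and 75.6 CPM with vehicle and at 210, 600 and 166 CPM with MTX, a log2 difference of 1.87 with no overlap (adjusted p = 0.239). Ighg2b, another IgG class, differed widely within MTX, with 135, 76.3 and 13.8 CPM against 4.87, 5.12 and 21.7 CPM. Ighg3 reached 56.3 CPM in MTX replicate 3 and lay between 0.97 and 3.38 CPM in the other 5 libraries. Jchain (immunoglobulin J chain), which joins IgA and IgM into polymers and is made by plasma cells, stood at 17.1, 19.8 and 15.99 CPM with vehicle and at 60.2, 152 and 43.5 CPM with MTX. Its log2 difference of 2.27 did not reach the threshold in edgeR (adjusted p = 0.207) and did in DESeq2 (adjusted p = 1.95e-05).

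More V genes were seen in the MTX libraries. Each B cell clone uses 1 V gene per chain, and plasma cells carry very large amounts of that transcript. Of 113 heavy chain V genes, 9, 20 and 11 had more than 3 counts in the vehicle libraries and 40, 68 and 56 in the MTX libraries. Of 100 kappa V genes the numbers were 29, 46 and 28 with vehicle and 52, 73 and 59 with MTX. Neither set of numbers overlaps between the groups, at similar total depth. The V genes with the most CPM were not the same from library to library. Ighv10-3 led the heavy chain V genes of MTX replicate 2 with 22.8 CPM, 41.1% of their sum, and lay between 0.10 and 2.05 CPM elsewhere. Igkv3-1 had 27.9 CPM in MTX replicate 2 and at most 0.27 CPM in the other 5 libraries. In MTX replicate 3 the leading kappa V gene was Igkv3-2 (32.5 CPM), and in MTX replicate 4 it was Igkv1-110 (24.9 CPM). Some V genes were shared by all 3 MTX libraries. Iglv1, a lambda chain V gene, stood at 1.47, 2.78 and 1.79 CPM with vehicle and at 18.6, 26.3 and 8.28 CPM with MTX (log2 difference 3.13, adjusted p = 0.181). Ighv9-3 had 0, 2 and 0 counts with vehicle and 45, 75 and 17 counts with MTX. Of 216 V genes, 48 passed the filter on low counts. The filter keeps a gene that is high in 1 group alone, so the split among the 48 does not describe the 216. Of the 48, 25 lay above every vehicle value and 1, Igkv3-4, below, against 10.7% and 10.4% of all genes. Igkv3-4 stood at 3.51, 4.46 and 1.59 CPM with vehicle and 0.09, 1.43 and 0.36 CPM with MTX.

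**Figure D2:**
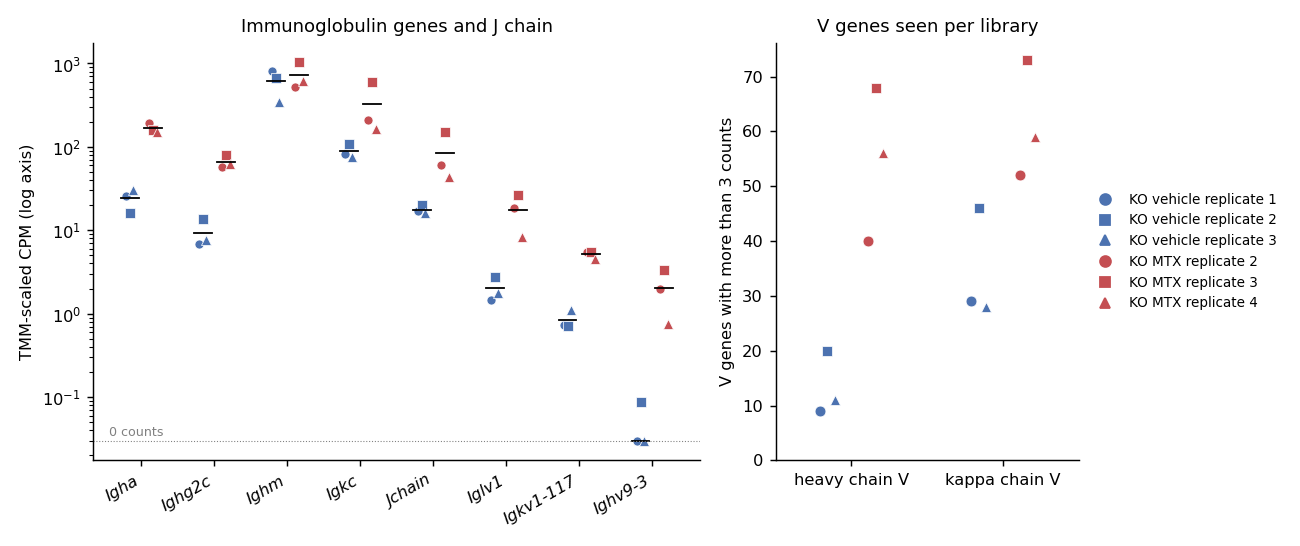
Left, the CPM of 8 antibody genes in each library on a log axis, with black bars for the group means and a dotted line for 0 counts. Right, the number of V genes with more than 3 counts in each library. Blue marks vehicle and red MTX, and apart from Ighm the red points lie above the blue ones for every gene and chain shown.

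Counts of single V genes are less certain than those of other genes, since the families hold near-identical copies. Igkv1-117 was compared with 2 relatives, and the coding part of Igkv1-110 was 97.2% identical to it over 359 bases, with an unbroken identical run of 142 bases, while Igkv1-135 was 77.1% identical. The last 150 coding bases of the first pair, positions 210 to 359, are shown from the GENCODE M21 transcripts with the 4 differing bases in capitals.
Igkv1-117: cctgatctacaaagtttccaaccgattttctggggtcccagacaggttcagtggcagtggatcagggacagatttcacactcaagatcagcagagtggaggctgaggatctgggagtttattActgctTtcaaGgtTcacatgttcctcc
Igkv1-110: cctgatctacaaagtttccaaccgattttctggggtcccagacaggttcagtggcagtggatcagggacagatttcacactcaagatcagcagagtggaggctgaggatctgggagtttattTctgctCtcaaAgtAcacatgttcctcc
They lie at chr6:68121678-68121827 and chr6:68271118-68271267 on the plus strand of GRCm38. Igkv1-110 stood at 2.78, 1.24 and 0.97 CPM with vehicle and at 10.5, 9.14 and 24.9 CPM with MTX, so both members of the pair lay higher with MTX without overlap. How far reads of one were counted for the other was not tested.

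The summed level of the B cell list overlapped between the groups, at 1061, 1004 and 644 CPM with vehicle and 793, 1866 and 982 CPM with MTX, and only MTX replicate 3 lay above every vehicle library. Of the 16 genes of the B cell list, 15 had a positive fold change (median 1.91). At an unadjusted p under 0.05, 7 were higher, against 7.25% of all genes. Yet none had MTX values above every vehicle value, against 10.7% of all genes. Cr2, a complement receptor of B cells, stood at 1.20, 1.68 and 0.68 CPM with vehicle and at 1.59, 17.0 and 6.68 CPM with MTX. Blk, a kinase of the B cell receptor, stood at 1.15, 2.65 and 1.45 CPM against 1.81, 12.7 and 5.03 CPM. In both, MTX replicate 2 lay within the vehicle range, and Ebf1, a B cell transcription factor that adipocytes also use, was the 1 gene of the list below every vehicle value. Without MTX replicate 3 a single gene of the list was higher at an unadjusted p under 0.05, and the same holds without vehicle replicate 3. The summed level of the plasma cell list was higher in all 3 MTX libraries, at 1204, 1122 and 807 CPM with vehicle and 1525, 2638 and 1374 CPM with MTX. Of its 20 genes, 19 were positive (median 1.87). In this list 12 were higher at an unadjusted p under 0.05 and 8 did not overlap, against 7.25% and 10.7% of all genes. Of the 8, 2 were called, Igha and Ighg2c. Without MTX replicate 3 the median was 0.60, 8 of the 20 were higher at an unadjusted p under 0.05 and 0 were called. The immunoglobulin class holds many of these genes, so the lists are not independent.

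Macrophage genes were split. Adgre1, which encodes the F4/80 antigen that marks mouse macrophages, stood at 130, 142 and 183 CPM with vehicle and at 396, 511 and 311 CPM with MTX. The groups were well apart, with a log2 difference of 1.42 (standard error 0.22, adjusted p = 0.181 by edgeR's quasi-likelihood test, 3.37e-07 by DESeq2). Marco, a scavenger receptor for bacteria and particles, stood at 4.72, 5.08 and 4.44 CPM against 7.63, 12.2 and 10.2 CPM (log2 difference 1.07). Cx3cr1, the fractalkine receptor of monocytes and macrophages, stood at 5.97, 4.24 and 7.58 CPM against 10.3, 9.27 and 9.17 CPM. Of 21 macrophage markers, 20 had a positive fold change, with a median of 0.48. Of the 21, 4 lay above every vehicle value, against 10.7% of all genes. The summed level of the 21 overlapped between the groups, at 5891, 6444 and 10360 CPM with vehicle and 9208, 12208 and 7548 CPM with MTX. Vehicle replicate 3 held more macrophage RNA than 2 of the MTX libraries. Without it, 16 of the 21 markers were higher at an unadjusted p under 0.05 (9.47% of all genes) and 3 were called, against 6 and 0 with it. The median was 0.27 without MTX replicate 3, and 4 of the 21 were then higher at an unadjusted p under 0.05.

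Genes of lipid-associated macrophages, the foamy cells that surround dying adipocytes, showed less of this order over the 6 libraries. Of 19, 12 had a positive fold change (median 0.26), none was past an unadjusted p of 0.05, and 1, Cd36, a fatty acid transporter, did not overlap. Without vehicle replicate 3, 17 of the 19 were positive (median 0.48). At an unadjusted p under 0.05, 7 were then higher and 1 lower, against 9.47% and 10.3% of all genes. Lipa, the lysosomal acid lipase, and Itgax, the CD11c antigen of these cells, overlapped between the groups with log2 differences of 0.55 and 0.54. Of 13 resident macrophage markers, 9 had a positive fold change (median 0.15). Their summed level overlapped, at 1377, 1509 and 1785 CPM with vehicle and 1735, 2191 and 1601 CPM with MTX. In the opposite direction to Adgre1, 3 of the 13 lay below every vehicle value, against 10.4% of all genes. Cd209f, a lectin of the DC-SIGN family, stood at 24.9, 23.4 and 20.6 CPM with vehicle and at 16.4, 11.6 and 14.96 CPM with MTX (log2 difference -0.68, adjusted p = 0.230). Cd209g, of the same family, stood at 7.28, 9.41 and 5.94 CPM against 3.57, 2.54 and 4.36 CPM (log2 difference -1.11). Cbr2, a carbonyl reductase common in resident macrophages, lay lower too, at 63.4, 60.6 and 54.0 CPM against 46.6, 30.7 and 46.2 CPM. None of these passed edgeR's threshold, and DESeq2 called Cd209f and Cd209g.

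Sensors and presenting molecules of the immune system lay mostly higher with MTX. Tlr8 (chrX:167242696-167264329, minus strand), an endosomal receptor for RNA, stood at 13.5, 15.7 and 20.2 CPM with vehicle and at 41.3, 52.97 and 36.6 CPM with MTX, a log2 difference of 1.41 (standard error 0.19, adjusted p = 0.181). Tlr9, the receptor for unmethylated DNA, stood at 2.20, 2.65 and 2.17 CPM against 5.78, 10.1 and 5.83 CPM (log2 difference 1.62). Nlrp3, the sensor of the inflammasome, and Tlr4, the endotoxin receptor, also lay above every vehicle value, with log2 differences of 0.96 and 0.42. In the list of toll-like receptors and inflammasome genes, 19 of 23 were positive. At an unadjusted p under 0.05, 5 were higher and 0 lower, against 7.25% and 7.39% of all genes. DESeq2 called 3 of the 23. The summed level of the list overlapped, at 569, 635 and 851 CPM with vehicle and 776, 1037 and 707 CPM with MTX. Of 19 Fc gamma receptor and ITAM signaling genes, which pass antibody binding on to the cell, all 19 were positive (median 0.54). Of these, 6 were higher at an unadjusted p under 0.05 and 3 did not overlap, against 7.25% and 10.7% of all genes. Their summed level overlapped, at 1626, 1830 and 2919 CPM with vehicle and 2645, 3588 and 2199 CPM with MTX. Lcp2, an adaptor of that pathway, stood at 22.6, 23.0 and 26.2 CPM against 37.9, 45.4 and 29.7 CPM. Lyn, a kinase of the same pathway, and Inpp5d, the phosphatase that restrains it, had log2 differences of 0.59 and 0.68 without overlap. Without vehicle replicate 3, 16 of these 19 genes were higher at an unadjusted p under 0.05, and without MTX replicate 3 the number was 3.

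MHC class II genes, through which macrophages, dendritic cells and B cells show antigen to T cells, lay mostly higher as well. Of 16 genes, 15 were positive (median 0.49), 8 were higher at an unadjusted p under 0.05 and 6 lay above every vehicle value, against 7.25% and 10.7% of all genes. Ciita, the master transactivator of the class, stood at 19.96, 17.6 and 19.8 CPM with vehicle and at 33.2, 40.8 and 25.6 CPM with MTX (log2 difference 0.80, standard error 0.17, adjusted p = 0.211). H2-Ab1, a beta chain, stood at 558, 442 and 561 CPM against 858, 863 and 702 CPM (log2 difference 0.63). H2-Eb1, another beta chain, stood at 634, 519 and 701 CPM against 943, 994 and 808 CPM (log2 difference 0.57). Cd74, the invariant chain, had a log2 difference of 0.54 and no overlap. DESeq2 called Ciita, H2-Ab1, H2-Eb1 and H2-Eb2, and not Cd74. The summed level of the list was 4327, 3846 and 5318 CPM with vehicle and 6408, 7210 and 5388 CPM with MTX, which does not overlap (exact permutation test, p = 0.1), although vehicle replicate 3 and MTX replicate 4 were close. B cells also carry these genes, and their part in the difference was not tested. Without MTX replicate 3, which holds the most B cell RNA, 6 of the 16 were higher at an unadjusted p under 0.05.

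The promoters of class II genes are shown because these members lay higher together and share a known element, the Y box bound by NF-Y. The letters CTGATTGG, or CCAATCAG on the other strand, occur in the RefSeq promoter window (300 bases, GRCm38.p6) of 4 of the 11 list genes that have one, H2-Aa, H2-Eb1, H2-Eb2 and H2-Oa, and in 4.7% of 27025 genes. H2-Aa, an alpha chain chosen for its promoter, stood at 716, 608 and 812 CPM with vehicle and at 996, 1091 and 824 CPM with MTX. The 150 bases before the start are given, with the matched letters in capitals, for chr17:34305717-34305866 on the plus strand (H2-Eb1) and chr17:34287824-34287973 on the minus strand (H2-Aa).
H2-Eb1: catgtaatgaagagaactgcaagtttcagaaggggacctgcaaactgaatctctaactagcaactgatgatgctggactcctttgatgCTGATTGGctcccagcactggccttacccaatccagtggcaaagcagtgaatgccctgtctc
H2-Aa: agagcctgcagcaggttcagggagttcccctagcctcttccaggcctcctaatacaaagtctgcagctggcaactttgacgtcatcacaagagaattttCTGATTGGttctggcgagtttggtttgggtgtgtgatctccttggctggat
A match of letters describes the window and shows no binding.

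T and NK cell genes were low in level and lay higher with MTX. Of 24, 22 were positive (median 0.58). In this list 8 were higher at an unadjusted p under 0.05 and 6 did not overlap, against 7.25% and 10.7% of all genes. Lck, the kinase that starts T cell receptor signaling, stood at 3.25, 4.29 and 4.54 CPM with vehicle and at 6.04, 14.0 and 8.10 CPM with MTX (log2 difference 1.21, adjusted p = 0.256). Cd3d, a chain of that receptor, stood at 1.15, 2.03 and 2.71 CPM against 3.22, 4.99 and 3.74 CPM. Trac, the constant region of its alpha chain, stood at 7.07, 7.16 and 9.42 CPM against 9.83, 11.2 and 12.4 CPM, and Trbc1, of its beta chain, overlapped. The summed levels overlap, because vehicle replicate 3 (248.9 CPM) lay above MTX replicates 2 and 4 (217 and 215 CPM). Without MTX replicate 3, 3 of the 24 were higher at an unadjusted p under 0.05. Of 14 neutrophil genes, 7 passed the filter, and 3 of these lay above every vehicle value, against 10.7% of all genes. The summed level of the 14 overlapped, at 81.2, 70.3 and 62.7 CPM with vehicle and 82.6, 69.2 and 73.2 CPM with MTX.

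**Figure D3:**
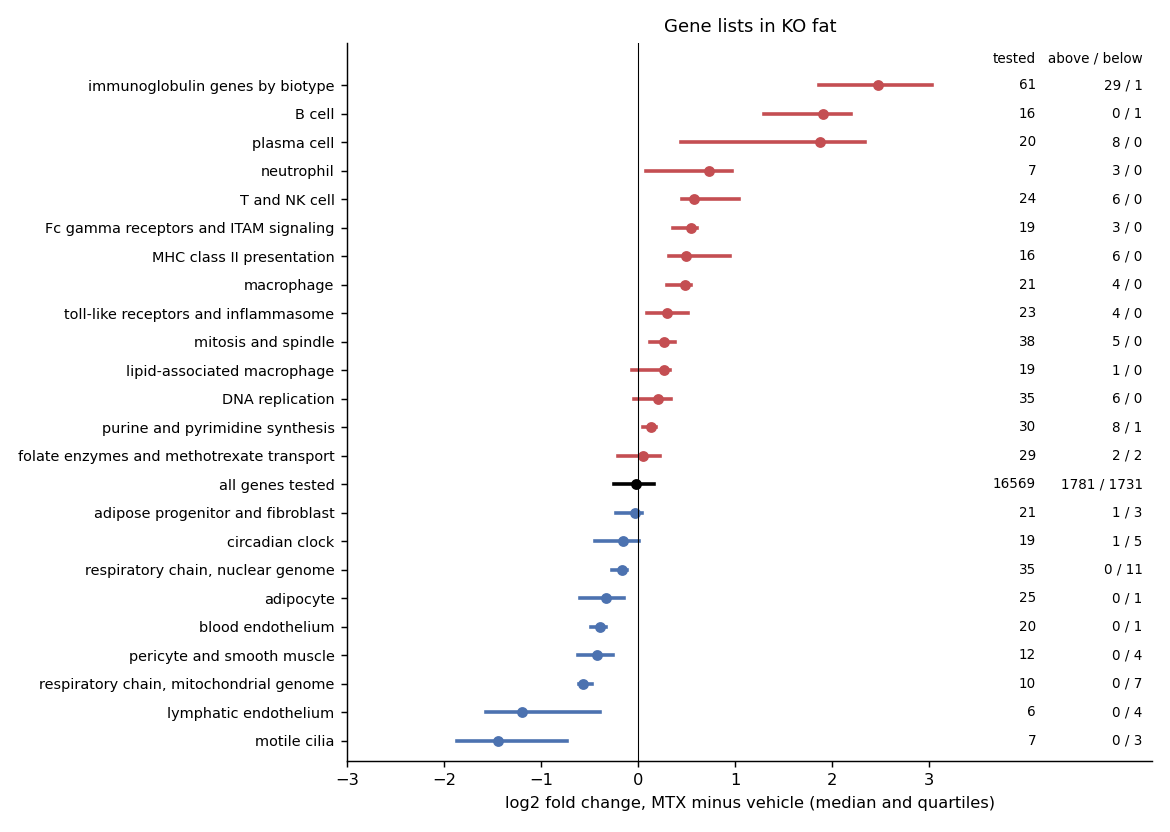
For each gene list, the point is the median and the line the quartiles of the log2 fold change of MTX over vehicle among the genes that passed the filter. The columns at the right give the number tested and the numbers whose MTX values lie above or below every vehicle value. Immunoglobulin, B cell and plasma cell lists have medians of 1.87 to 2.48, while lymphatic endothelium and motile cilia have medians below -1.

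Genes that the study measured in endothelial cells or fat are given here as RNA of KO fat. The study measured several of them as protein or by staining, and ICAM-1 and E-selectin in cultured cells. In fat of KO mice it reported no lowering of VCAM-1 mRNA by MTX. Vcam1, the endothelial adhesion molecule to which leukocytes bind, stood at 50.6, 47.6 and 47.3 CPM with vehicle and at 73.4, 82.2 and 67.3 CPM with MTX. Its log2 difference was 0.61 (standard error 0.10), with tight groups and no overlap, and it missed the threshold in edgeR's quasi-likelihood test (adjusted p = 0.181) and passed it in DESeq2 (adjusted p = 0.000468). Icam1, a second adhesion molecule, overlapped at 24.6, 29.9 and 33.1 CPM against 28.6, 46.0 and 24.9 CPM, and Sele had at most 7 counts in any library. Lgals3 (galectin-3, the Mac-2 antigen used to stain macrophages) overlapped at 1377, 1560 and 3064 CPM against 1756, 2194 and 1366 CPM. Vehicle replicate 3 was the highest library for Lgals3. Smad2 and Smad4, signal transducers of TGF-beta, lay above every vehicle value with log2 differences of 0.40 and 0.17, and Smad3 overlapped. Of the leukocyte ligands, Itgal (LFA-1, which binds ICAM-1) stood at 6.34, 8.44 and 9.57 CPM against 10.8, 26.1 and 15.8 CPM, and Itga4 (of VLA-4, which binds VCAM-1) at 20.3, 27.0 and 33.5 CPM against 39.3, 61.8 and 37.6 CPM, both without overlap. DESeq2 called Vcam1, Itgal and Itga4 among 19 adhesion molecules that passed the filter, and 0 lower. In the other direction, Jam2 and Jam3, junctional adhesion molecules, lay below every vehicle value with log2 differences of -0.38 and -0.37.

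Among 29 genes of folate metabolism and MTX transport, 17 were positive with a median of 0.05. Of the 29, 2 lay above and 2 below every vehicle value, against 10.7% and 10.4% of all genes. Fpgs, which adds the glutamate tail that keeps MTX in cells, stood at 14.9, 17.8 and 16.6 CPM against 12.3, 13.8 and 14.8 CPM, a log2 difference of -0.27 without overlap (adjusted p = 0.372). Mtr, methionine synthase, and Abcc3, an efflux pump for MTX, had log2 differences of 0.38 and 0.37. Most nucleotide synthesis genes had a positive fold change. Of 30, 24 were positive, with a median of 0.13. Of the 30, 8 lay above and 1 below every vehicle value, against 10.7% and 10.4% of all genes. Dck, the salvage kinase for deoxycytidine, stood at 17.2, 15.8 and 19.95 CPM with vehicle and at 26.5, 28.1 and 25.4 CPM with MTX (log2 difference 0.59, standard error 0.12, adjusted p = 0.207; DESeq2 adjusted p = 0.00867). Paics and Atic, enzymes of the purine pathway of which Atic is a target of MTX polyglutamates, had log2 differences of 0.32 and 0.24 without overlap. The sum over these genes was 1694, 1550 and 1690 CPM against 1947, 1777 and 1837 CPM. Adenosine receptors are listed as measured by the study. Adora3 stood at 0.47, 0.57 and 0.39 CPM with vehicle and at 0.97, 1.25 and 0.71 CPM with MTX, on 8 to 28 counts per library. Adora1 and Adora2a overlapped, at 110 to 203 CPM against 50.1 to 162 CPM and at 11.4 to 17.2 CPM against 13.6 to 17.7 CPM, and Adora2b and Nt5e, the ectoenzyme that makes adenosine from AMP, overlapped too.

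Genes chosen by rank alone, the 15 with the smallest p in each direction among genes with a mean of at least 1 CPM and no overlap, gave 9 higher genes besides those already described. Slc8a1, the sodium-calcium exchanger, stood at 3.20, 3.004 and 2.85 CPM with vehicle and at 7.19, 6.96 and 6.77 CPM with MTX (log2 difference 1.21, adjusted p = 0.181). Tpm3, a tropomyosin of the actin cytoskeleton, stood at 260, 266 and 274 CPM against 444, 460 and 403 CPM (0.71), and Capza1, which caps actin filaments, at 56.5, 52.9 and 59.2 CPM against 88.6, 96.4 and 79.8 CPM (0.65). Kif3b and Kif13b, kinesin motors, had log2 differences of 0.63 and 0.62. Gab2, a signaling adaptor of leukocytes, stood at 62.0, 59.6 and 60.1 CPM against 86.3, 84.5 and 89.5 CPM (0.52). Rnf149, Tm9sf1 and Ttc7 had log2 differences between 0.57 and 0.65. None of the 9 passed edgeR's threshold.

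Genes lower with MTX were named by the same rule. Igfbp2, an insulin-like growth factor binding protein, stood at 7.54, 13.1 and 8.60 CPM with vehicle and at 1.32, 3.17 and 3.07 CPM with MTX (log2 difference -1.95, standard error 0.37, adjusted p = 0.197; DESeq2 adjusted p = 0.000174). Sult1e1, the estrogen sulfotransferase, stood at 28.3, 51.8 and 28.6 CPM against 11.4, 15.2 and 9.97 CPM (-1.57). Ccn3, a matricellular protein, stood at 13.7, 10.96 and 9.37 CPM against 5.29, 4.15 and 4.81 CPM (-1.25). C1qtnf2, a secreted C1q-like protein, stood at 7.65, 8.39 and 8.70 CPM against 4.19, 4.50 and 3.87 CPM (-0.98), and Angpt4, an angiopoietin, at 2.15, 4.77 and 2.75 CPM against 0.93, 0.85 and 0.85 CPM (-1.88). Tpm2 (chr4:43514711-43523765, minus strand), the muscle tropomyosin, stood at 43.4, 55.9 and 50.0 CPM against 26.2, 24.2 and 29.8 CPM (-0.90), the opposite direction to its paralog Tpm3. Ackr4, a receptor that clears chemokines, had a log2 difference of -1.24. Gadd45g, a stress-response gene, and Wwc1, of the Hippo pathway, had log2 differences of -0.66 and -1.02, and Ccdc57 had -1.10. Kcnq1ot1, Mir99ahg and Miat, long noncoding RNAs, had -0.60, -0.57 and -1.29. None of these passed edgeR's threshold.

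**Figure D4:**
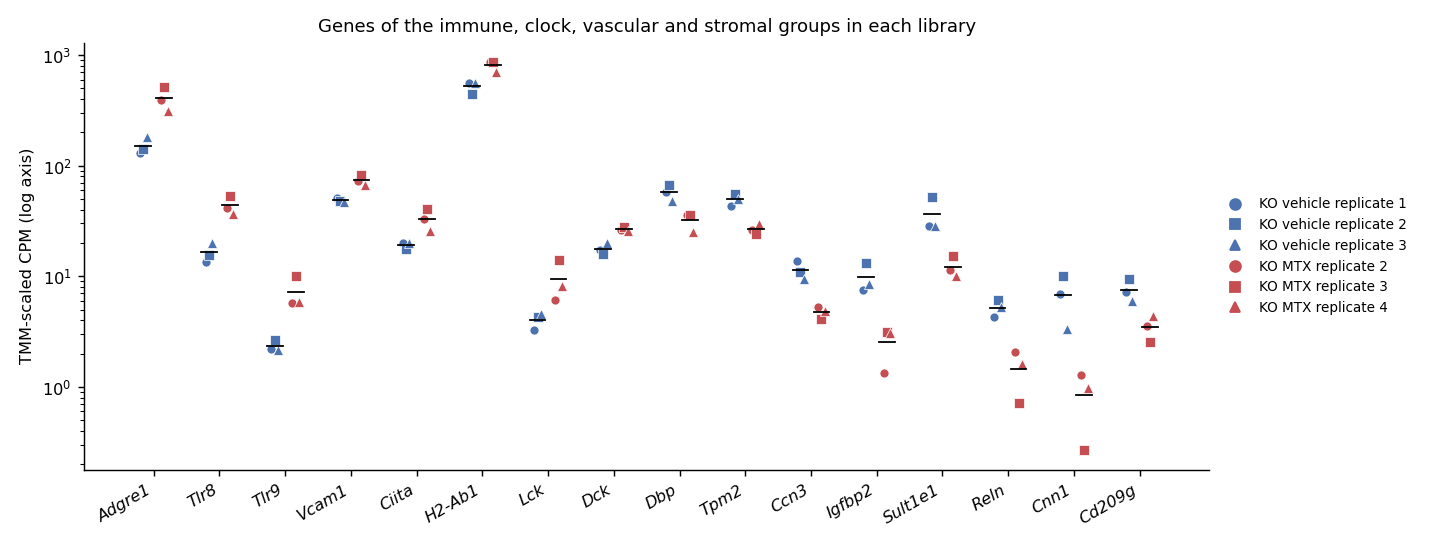
TMM-scaled CPM of 16 genes in each library on a log axis, with black bars for the group means, blue for vehicle and red for MTX. Genes from Adgre1 to Dck lie higher with MTX and those from Dbp to Cd209g lower, and the groups do not overlap for any gene shown.

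Vascular and contractile genes had negative fold changes. All 6 lymphatic endothelial markers that passed the filter were negative (median -1.20), and 4 lay below every vehicle value against 10.4% of all genes. Reln, the matrix protein reelin that lymphatic endothelium secretes, stood at 4.24, 6.14 and 5.27 CPM with vehicle and at 2.07, 0.71 and 1.60 CPM with MTX (log2 difference -1.83, standard error 0.38, adjusted p = 0.207; DESeq2 adjusted p = 0.00174). Flt4, the VEGF-C receptor, stood at 16.03, 20.9 and 13.5 CPM against 10.6, 5.13 and 11.7 CPM. Prox1, the transcription factor that sets lymphatic identity, stood at 1.68, 4.24 and 2.17 CPM against 1.32, 0.18 and 1.20 CPM, and Mmrn1 at 6.65, 12.2 and 9.08 CPM against 5.25, 0.535 and 4.01 CPM. MTX replicate 3 was the lowest library for all 4. Without it 3 of the 6 were lower at an unadjusted p under 0.05 (7.12% of all genes). All 20 blood endothelial markers were negative as well (median -0.39). Only 1, Eng, an accessory receptor for TGF-beta, lay below every vehicle value, against 10.4% of all genes. Their summed level overlapped, at 2232, 2430 and 1712 CPM with vehicle and 1781, 1130 and 1968 CPM with MTX. All 12 pericyte and smooth muscle markers were negative (median -0.43), with 4 below every vehicle value, against 10.4% of all genes. The sum of the 12 overlapped too, at 1112, 1222 and 777 CPM against 822, 557 and 930 CPM. Cnn1, a smooth muscle calponin, stood at 6.86, 10.1 and 3.33 CPM with vehicle and at 1.28, 0.27 and 0.98 CPM with MTX (log2 difference -2.997, adjusted p = 0.206; DESeq2 adjusted p = 8.88e-05). Myh11, smooth muscle myosin, stood at 65.4, 118 and 46.3 CPM against 32.0, 18.6 and 45.4 CPM, and the nearest values differ by little. Tagln and Kcnj8, a vascular potassium channel, had log2 differences of -0.58 and -0.72. Without MTX replicate 3, 2 of these 12 genes and 0 of the 20 blood endothelial genes were lower at an unadjusted p under 0.05.

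Respiratory chain transcripts of the mitochondrial genome summed to 40793, 38617 and 28082 CPM with vehicle and to 27058, 20485 and 26960 CPM with MTX. The sums do not overlap, with a ratio of the group means of 0.693, but vehicle replicate 3 lay close to MTX replicate 2. All 10 genes tested were negative (median -0.57) and 7 lay below every vehicle value, against 10.4% of all genes. mt-Cytb, of complex III, stood at 7308, 6910 and 4897 CPM against 4240, 3312 and 4496 CPM (log2 difference -0.67, adjusted p = 0.290). mt-Nd6 and mt-Nd4, of complex I, had log2 differences of -0.58 and -0.56 without overlap, and mt-Nd2 had -0.60 with overlap. Among 35 nuclear genes of the chain, 29 were negative with a median of -0.17, and 11 lay below every vehicle value, against 10.4% of all genes. Adipocytes are rich in these transcripts. The adipocyte sum overlapped between the groups, at 64442, 49202 and 38907 CPM with vehicle and 49975, 26269 and 54608 CPM with MTX, with 21 of 25 markers negative (median -0.34). Its part in the difference was not tested. Without MTX replicate 3 the median of the nuclear list was -0.04 and that of the adipocyte list -0.03.

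Some clock genes lay lower with MTX. Mammalian cells keep time by a loop in which Arntl and Clock switch on Per, Cry, Nr1d and Dbp genes, which in turn repress the loop or drive its outputs. Dbp, an output transcription factor, stood at 57.5, 67.0 and 47.8 CPM with vehicle and at 36.0, 35.5 and 25.4 CPM with MTX (log2 difference -0.83, standard error 0.18, adjusted p = 0.207; DESeq2 adjusted p = 0.0097). Nr1d1, the repressor REV-ERB alpha, stood at 102, 111 and 82.7 CPM against 72.5, 73.7 and 76.8 CPM. Per3 and Per2, period genes, had log2 differences of -0.61 and -0.35, and like Nr1d1 their groups did not overlap. In the other direction, Arntl stood at 9.17, 9.68 and 12.9 CPM against 12.2, 16.2 and 17.6 CPM, with overlap. Of 19 clock genes, 5 lay below every vehicle value and 1, Nfil3, above, against 10.4% and 10.7% of all genes. The time of day at which tissue was taken is not given in the labels, and its part in these values was not tested. The sum of the list, 883, 934 and 775 CPM against 726, 734 and 734 CPM, did not overlap (exact permutation test, p = 0.1). The E box CACGTG, through which Arntl and Clock act and whose letters read the same on both strands, was found in the RefSeq promoter windows of 5 of 16 list genes (Bhlhe41, Ciart, Cry1, Per1 and Tef) against 8.09% of all genes. Ciart, a circadian repressor picked for its promoter, is shown because it holds 3 copies and stood at 5.24, 4.77 and 5.60 CPM against 2.51, 4.41 and 4.23 CPM (chr3:95882229-95882378, minus strand, the 150 bases before the start, E boxes in capitals).
Ciart: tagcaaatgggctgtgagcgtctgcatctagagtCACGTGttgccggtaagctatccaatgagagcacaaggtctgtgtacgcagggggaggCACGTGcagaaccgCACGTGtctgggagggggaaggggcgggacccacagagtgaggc
The windows of Dbp, Nr1d1 and Per3 held no such letters.

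Some genes of motile cilia, a structure that fat cells lack, were high in vehicle replicates 1 and 2 alone. Foxj1, the master regulator of motile cilia, stood at 11.8, 17.2 and 0.29 CPM with vehicle and at 0.18, 0.09 and 0.22 CPM with MTX, and it failed the filter, which asks for enough counts in 3 libraries. The summed level of 16 cilia genes was 69.1, 84.3 and 23.6 CPM with vehicle and 21.7, 26.4 and 25.2 CPM with MTX. Vehicle replicate 3 lies with the MTX libraries in this sum, though not for every gene. Ccdc39, an assembly factor of ciliary motors, stood at 7.02, 6.85 and 6.47 CPM with vehicle and at 3.04, 4.95 and 4.05 CPM with MTX, 1 of 3 list genes with every vehicle value above the MTX values. In all, 70 genes, 4 of them among the 16 of the list, had at least 1 CPM in both of those vehicle libraries and at least 4 times the level of each of the other 4 libraries, with levels under 0.5 CPM set to 0.5. Dcdc2a (17.2 and 19.1 CPM) and Cfap65 (16.7 and 24.9 CPM) had at most 0.24 CPM in the other 4 libraries, and Mmp7, a matrix protease of gland epithelium, had 8.38 and 12.1 CPM against at most 0.29 CPM. These genes were chosen after their values were seen. DESeq2 called 57 of the 70 lower with MTX, 18.3% of its 311 lower genes, against 1.6% of all 19456 genes. The rule for the 70 asks for low levels in every MTX library, so this count follows largely from the choice. All 6 genes of an intestine and gland epithelium list that passed the filter were negative too (median -1.27). Of these, 3 were lower at an unadjusted p under 0.05, against 7.39% of all genes, and 0 were free of overlap.

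**Figure D5:**
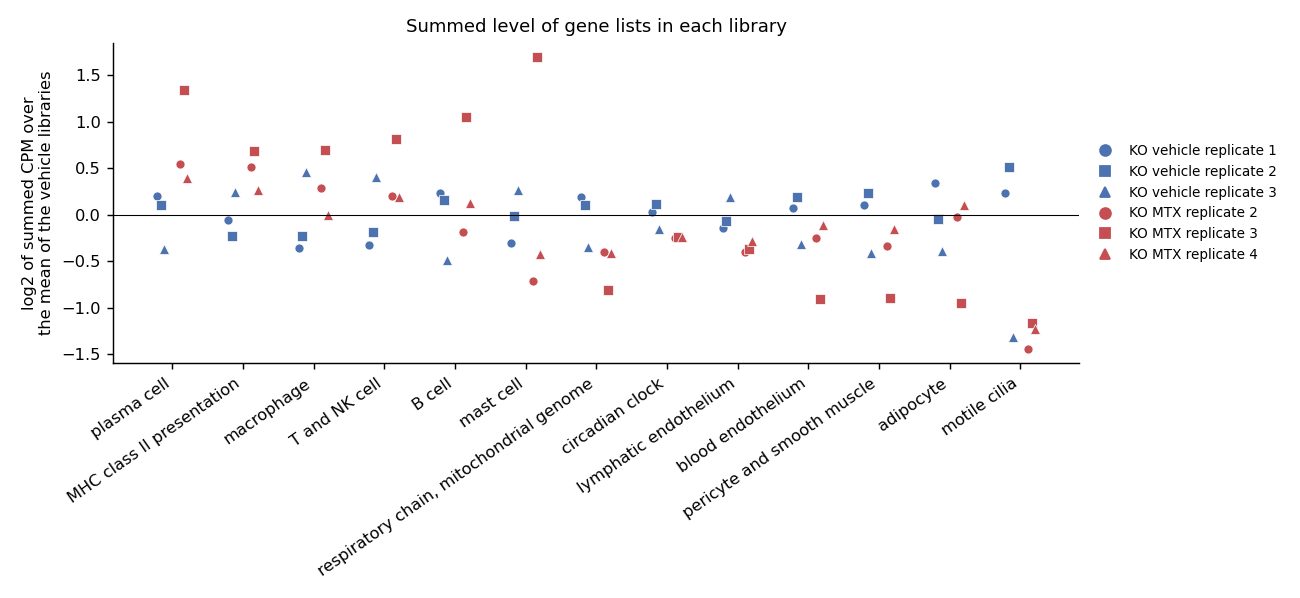
Each point is the summed CPM of a gene list in 1 library, as log2 of its ratio to the mean of the vehicle libraries. Plasma cell and MHC class II sums lie higher and mitochondrial, clock and lymphatic sums lower in every MTX library, while MTX replicate 3 is extreme for B cell, mast cell and adipocyte sums and vehicle replicate 3 lies with the MTX libraries for motile cilia.

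The response of KO fat was set against that of flox fat by the interaction term of a fit over all 12 libraries, which have no library in common between the 2 responses. Of 18702 genes, 168 had a higher MTX response in KO (0.898%) and 17 a lower one (0.0909%) at an adjusted p under 0.1. The number called, 185, was 5 to 7 without 1 of the KO vehicle libraries and 1371 without flox vehicle replicate 4. Of these calls, those with a lower response in KO were 0 without any 1 of the KO vehicle libraries and 311 without flox vehicle replicate 4. All 168 had a negative fold change in flox, with a median of -5.33, and 100 of them lay under 1 CPM in every KO library. For 154 of the 168 the flox vehicle mean was over 4 times the KO vehicle mean. In what follows, flox levels of single genes are scaled by factors from all 12 libraries and KO levels by factors from the 6 KO libraries. Markers of the epididymis lay far lower with MTX in flox. Cuzd1 stood at 1299, 3736 and 519 CPM in flox vehicle and at 164, 0.82 and 3.75 CPM in flox MTX, and Adam7 at 598, 1606 and 244 CPM against 64.3, 0.50 and 2.4996 CPM. In the KO libraries these 2 genes lay at or under 10.4 CPM. Their part in the interaction calls was not tested. Tcp11, a testis gene, is an example, at 0.40 to 2.00 CPM over the 6 KO libraries and at 49.6, 44.2 and 19.6 CPM in the flox vehicle libraries. Of the 3 genes that rose in KO, Igha was among the 17. In the fit over 12 libraries the log2 fold change of Igha was 2.82 in KO and 7.24 in flox, an interaction of -4.41 (adjusted p = 0.0836), on flox vehicle values of 11.8, 5.37 and 12.9 CPM and flox MTX values of 347, 2967 and 1224 CPM. Ighg2c and Igkv1-117 had interaction adjusted p-values of 0.667 and 0.963, with flox MTX levels that ranged from 15.9 to 2732 CPM and from 4.96 to 59.8 CPM. Fmo2, Sult1a1 and Fgf18 were higher with MTX in flox and not in KO. Fmo2, a flavin monooxygenase, stood at 117, 151 and 118 CPM in KO vehicle and 101.3, 112 and 97.6 CPM in KO MTX, against 44.0, 47.2 and 59.6 CPM in flox vehicle and 102, 145 and 86.1 CPM in flox MTX (interaction -1.43, adjusted p = 0.083). Lgals9 (galectin-9) showed the same order, with a log2 difference of -0.02 in KO and 0.83 in flox. For Adgre1, Tlr8 and Vcam1 the interaction did not pass the threshold, so their fold changes are not shown to differ between the genotypes. Across the 16569 genes, the 2 responses had a Pearson correlation of 0.486 and the same sign for 58.7%, which describes genes that share libraries within each response and is no test.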

How the data were processed

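RNA-seq was done on white adipose tissue, with 3 libraries for each of 4 groups. Per the labels and methods, the authors trimmed reads with Trimmomatic 0.36, aligned them to GRCm38 with STAR 2.5.2b and deposited raw read counts per gene from featureCounts (Subread 1.5.2). The labels describe polyA RNA and the methods ribodepletion, which capture mitochondrial and noncoding transcripts differently, and which was used is not settled here. The strand setting is not given in the sources used here, so antisense and overlapping genes cannot be told apart, and near-identical immunoglobulin V genes may share or lose reads. Of 49315 genes, 16569 passed edgeR's filter on low counts in the 6 KO libraries. These were scaled by TMM factors and tested with edgeR 4.0.16 (quasi-likelihood F test, 4 residual degrees of freedom, Benjamini-Hochberg adjustment, R 4.3.3). DESeq2 1.42.0, a fit on all 12 libraries with an interaction term, other scalings and filters and leaving out each library were alternatives. The code was tested on simulated data. No 2 libraries agreed within sampling noise. The limit for a count of 0 (3 counts) covers counting error only. The members and gene lists were chosen with earlier results of these data known. Genes named were the 15 with the smallest p in each direction among those with a mean of at least 1 CPM and no overlap, up to 4 per list, the study's genes, and 5 per direction for the interaction, with exceptions stated where they stand. A few genes that the rule names are not reported here.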

Additional observations from a re-analysis of the deposited data

Results flagged for a closer look

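The MTX response differed between KO and flox fat by the interaction term for 185 genes (edgeR's quasi-likelihood test, adjusted p under 0.1). Epididymis markers such as Cuzd1 and Adam7 were high in the flox vehicle libraries and lower in flox MTX, and their part in these calls was not tested. Among the genes named here, the difference in log2 fold change, KO minus flox, was -4.41 for Igha, 6.42 for Tcp11, -2.06 for Fgf18, -1.43 for Fmo2, -1.35 for Sult1a1 and -0.83 for Lgals9. All of these but Tcp11 had a lower response in KO. Without any 1 of the KO vehicle libraries no gene was called on that side. For 2 further genes the groups lay in opposite order in the 2 genotypes without overlap, and the difference did not pass the threshold of the interaction test. Cbr2 had MTX values below vehicle in KO and above it in flox (difference -1.48), and Abcc3 had MTX values above vehicle in KO and below it in flox (difference 1.47).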

How the results depend on the processing

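The 3 calls in KO became 515 with DESeq2 (the 3 genes shared), 275 with DESeq2 on all 12 libraries, 155 without a filter on low counts, 1 with library size scaling, and 0 with all 12 libraries or 9 libraries in the fit and at an adjusted p under 0.05. With all 12 libraries 1491 genes had an unadjusted p under 0.05. Leaving out 1 library gave 0 to 534 calls. The 185 interaction calls became 1232 with DESeq2 and 1 when each library had to hold 10 counts of a gene, and 5 to 1371 without 1 library, with changes of over 1.5 times for flox vehicle replicates 1, 3 and 4 (81, 26 and 1371), flox MTX replicates 2 and 4 (32 and 120), KO vehicle replicates 1, 2 and 3 (6, 5 and 7) and KO MTX replicates 2 and 4 (60 and 9). The 17 interaction calls with a lower response in KO became 242 with DESeq2 and 2 with library size scaling. They became 0 when each library had to hold 10 counts of a gene. There were also 0 without flox vehicle replicate 3, flox MTX replicate 2, KO MTX replicate 4 or any 1 KO vehicle library. The causes were not tested.

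The groups share only replicate numbers 2 and 3, and whether the numbers mark pairs is not settled here. Same-numbered libraries had correlations of deviations of -0.262 and 0.317. Differently numbered libraries of the 2 groups had -0.477 to 0.373, so these values cannot show pairing or its absence. With the replicate block 293 genes were called, on 1 residual degree of freedom, with the block over 12 libraries 0, and for the interaction with the block 0.

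Direction turned for a few named genes whose groups overlap. The log2 fold change of Lgals3 was 0.018 with the block over 12 libraries, and that of Lgals9 was 0.0011 with all 12 libraries in the fit and 0.013 with DESeq2 on them. Without 1 library, the range was -0.38 to 0.28 for Lgals3, -0.046 to 0.042 for Lgals9, -0.087 to 0.50 for Ighm, -0.13 to 0.16 for Adora2a, -0.10 to 0.38 for Icam1, -0.75 to 0.0082 for Nt5e and -1.18 to 0.13 for Tcp11. List medians stayed within 1 SD of their value in 996 of 1088 alternatives; for the summed levels only library size scaling was run. At this depth a count of 0 allows up to 0.157 CPM, and 3 against 3 libraries cannot give an exact p under 0.1.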

Other observations

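Most genes of secretion, cell division and scavenging also had a positive fold change with MTX in KO fat, but the summed level of each list overlapped between the groups. Of 20 genes of ER chaperones and secretion, 18 had a positive fold change (median 0.20) and 7 lay above every vehicle value, against 10.7% of all genes. Xbp1, the transcription factor that expands the secretory apparatus of plasma cells, stood at 158, 153 and 151 CPM with vehicle and at 170, 184 and 176 CPM with MTX. Of 38 genes of mitosis and the spindle, 35 were positive (median 0.26). Of the 38, 8 were higher at an unadjusted p under 0.05 and 5 did not overlap, against 7.25% and 10.7% of all genes. Ccna2, a cyclin, and Aurka, a spindle kinase, were among the 5. The summed level was 563, 573 and 830 CPM with vehicle and 849, 766 and 701 CPM with MTX, so vehicle replicate 3 lay above MTX replicates 3 and 4. Without vehicle replicate 3, 25 of the 38 were higher at an unadjusted p under 0.05 and 4 were called. Of 17 genes of scavenger receptors and cholesterol efflux, 6 lay above every vehicle value, against 10.7% of all genes. Among the 6 were the lipid transporters Abca1 and Abcg1.

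Other groups gave no such order. The median log2 fold change was -0.00 over 30 ribosomal protein genes, 0.04 over 30 interferon-stimulated genes, -0.02 over 26 p53 targets and 0.00 over 32 matrix enzymes and crosslinkers, and no gene of these lists was called by edgeR's quasi-likelihood test. Adipokines (3 of 17 positive, median -0.38) and genes of the lipid droplet and lipolysis (6 of 26 positive, median -0.24) lay lower on balance with 0 genes of either list free of overlap, and without MTX replicate 3 their medians were -0.16 and -0.01.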
